A study of Mus musculus with 6 samples.

Results

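The HoxC cluster is a row of 9 homeobox genes on mouse chromosome 15 (Hoxc13, Hoxc12, Hoxc11, Hoxc10, Hoxc9, Hoxc8, Hoxc6, Hoxc5 and Hoxc4, in this order along the plus strand). They were chosen by gene symbol, and all 9 were found among the 24453 rows of the deposited counts. RNA had been sequenced from flow-sorted cells of newborn mouse back skin, taken at postnatal day 0, giving 3 control libraries and 3 with the label Ring1a/b 2KO (below, 2KO). The 2KO genotype is given as Ring1a-/- Ring1b-/-, loss of both RING1 proteins, the catalytic subunits of Polycomb repressive complex 1. The labels describe the control genotype no further than "Control", and give neither a Cre driver, a strain nor the number of mice per library. They call the cells hair follicle cells, whereas the attached protocol describes a gate for interfollicular epidermis. Because nothing states that the libraries came from separate animals, p-values measure only the spread between these samples.

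Hox genes encode transcription factors that bind DNA through a homeodomain and give cells their position along the body axis. Within a cluster the order of the genes follows the order of their expression domains, with low numbers toward the head and high numbers toward the tail and the tips of the limbs. Polycomb complexes keep Hox genes silent outside their domains. In skin, Hoxc13 has a further role in hair, where it is required for a normal hair shaft and acts upstream of Foxn1 and of hair keratin genes.

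The homeodomain contacts DNA through its recognition helix, and the 36 bases that encode its core are shown for Hoxc13 and 4 other members, to let the gene that fell be compared with genes beside it. Each stretch lies in the last exon of its gene (GRCm38, plus strand, GENCODE vM21 transcripts). Capitals mark the bases that differ from Hoxc13.
Hoxc13: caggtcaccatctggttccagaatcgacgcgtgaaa
Hoxc12: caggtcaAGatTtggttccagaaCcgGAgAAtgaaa
Hoxc11: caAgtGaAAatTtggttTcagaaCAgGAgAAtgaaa
Hoxc9: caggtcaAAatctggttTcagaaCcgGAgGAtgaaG
Hoxc8: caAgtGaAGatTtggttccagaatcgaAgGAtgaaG
Hoxc12 differs from Hoxc13 at 8 of these 36 bases, Hoxc9 and Hoxc8 at 9 each and Hoxc11 at 12. Over stretches as long as a read the members can be told apart. None of the 100-base stretches of Hoxc13, Hoxc12, Hoxc11, Hoxc9, Hoxc8, Hoxc6, Hoxc5 or Hoxc4 transcripts in the basic annotation occurs in a transcript of another gene. In Hoxc10, 69 of 1810 such stretches (3.81%) also occur in Hoxc5, in annotation outside the basic set, where exons of Hoxc5 and Hoxc10 overlap. How reads in that overlap, or on either strand, were counted is a detail not given in the sources used here.

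Library totals lay between 24.8 and 30.8 M counts (M for mega), so that 1 count was worth between 0.0323 and 0.0392 CPM (counts per megacount, scaled by edgeR's TMM factors). Neither targeted gene told the groups apart. Ring1 was at 19.5, 22.4 and 3.37 CPM in the control libraries and at 1.84, 7.34 and 14.1 CPM in the 2KO libraries, and Rnf2 at 67.7, 79.5 and 47.1 against 75.3, 66.4 and 89.2 CPM. Ring1 in control replicate 3 therefore does not match its label. Neither do Ring1 and Rnf2 in 2KO replicates 2 and 3, both higher there than in control replicate 3. Rnf2 in 2KO replicate 1 was higher than in that control library as well. Which exons are deleted is not stated, so whole-gene counts may miss the deletion, and every direction below is between libraries so labelled. Epithelial markers were high in every library (Krt5 at 7636 CPM or more), and Hbb-bs and Hba-a1 of red blood cells and Cd207 of Langerhans cells were at 0 counts in all 6. Alas2 of red cell precursors (2.90 to 6.60 CPM) and Cd74 of immune cells (2.79 to 14.2 CPM) were detected in every library, with overlapping groups. The hair follicle marker Lhx2 was at 421, 211 and 241 CPM in control and at 177, 140 and 140 CPM in 2KO, without overlap. The inner root sheath keratin Krt25 was at 0 counts in every 2KO library. The interfollicular suprabasal keratin genes Krt1 and Krt10 lay between 1710 and 6675 and between 1149 and 4071 CPM in control. In 2KO they lay between 567 and 2165 and between 232 and 1053 CPM, Krt10 without overlap. Of 4 suprabasal markers (with Lor and Ivl), 0 passed edgeR's test described below, while DESeq2 called 2 lower and limma-voom 1. Xist was high, at 4555 CPM or more, in control replicate 3 and in 2KO replicates 1 and 2, and at 2.48, 9.27 and 10.4 CPM in the other 3 libraries, whose Ddx3y lay at 113 CPM or more. Of the 3 control libraries 1 thus has high Xist, and of the 3 2KO libraries 2 do.

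The members formed 3 stretches along the chromosome. At the end of the cluster, Hoxc13 fell in 2KO. Next to it, Hoxc12, Hoxc11, Hoxc10 and Hoxc9 were higher in every 2KO library than in any control library, and of these Hoxc10 and Hoxc11 passed the test. Farther along, Hoxc8, Hoxc6, Hoxc5 and Hoxc4 overlapped between the groups. By edgeR's quasi-likelihood test with Benjamini-Hochberg adjustment over 14972 tested genes, 2 of 9 members rose, 1 fell and 6 did not pass the threshold (an adjusted p under 0.05). Over all tested genes 6.61% rose and 2.42% fell, 9.02% in either direction. The ranges of the 2 groups were separate for 5 of 9 members, 4 higher and 1 lower in 2KO, and the same held for 28.4% of all tested genes (15.2% higher and 13.1% lower). The median log2 fold change (2KO against control) stood at 0.25 for the members and at -0.02 for all tested genes. Hoxc10, Hoxc11 and Hoxc12 reached the low-count filter in all 3 2KO libraries but in at most 1 control library, so they could be tested because they were high in 2KO, and the counts and the median over members carry that tilt.

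**Figure D1:**
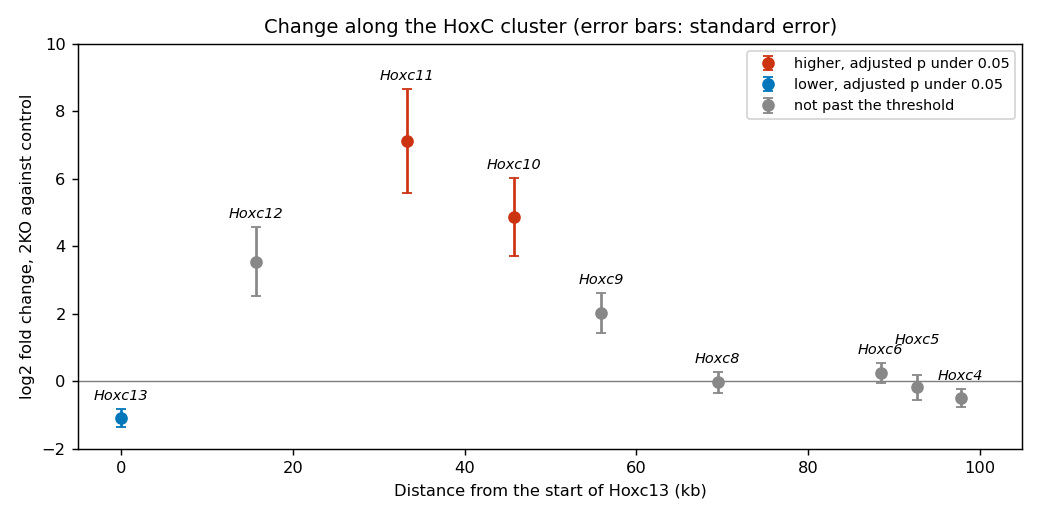
Log2 fold change of 2KO against control (edgeR, vertical axis) for the 9 HoxC genes, placed by the distance of each gene's start from that of Hoxc13 in kb (horizontal axis). Error bars are standard errors from 3 libraries per group. Hoxc13 lies at -1.09, Hoxc12 to Hoxc9 between 2.03 and 7.12, and the 4 genes from Hoxc8 on between -0.50 and 0.25. The fitted value of Hoxc11 rests on 0 control counts and depends on the prior count.

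Hoxc13 (chromosome 15, 102921103 to 102928814), the hair gene, was at 51.7, 36.8 and 34.8 CPM in the control libraries and at 18.0, 16.2 and 23.9 CPM in the 2KO libraries. Every 2KO library was below every control library. The mean went from 41.1 ± 9.25 to 19.3 ± 4.02 CPM (SD, n = 3 each), 2.13-fold lower (log2 fold change -1.09, SE 0.25, edgeR adjusted p = 0.0274). The direction was the same among the libraries with high Xist, at 34.8 CPM in control against 18.0 and 16.2 CPM in 2KO, and among those with low Xist, at 51.7 and 36.8 against 23.9. The call is close to the threshold. It was lost without control replicate 1 (edgeR adjusted p = 0.103), control replicate 2 (0.054), 2KO replicate 1 (0.0671) or 2KO replicate 2 (0.105), and with Xist as a covariate (0.0549). With both replicate-3 libraries left out, the log2 fold change was -1.37 (edgeR adjusted p = 0.0708), while omitting both replicate-1 libraries gave -0.82 (0.131).

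Other genes of the hair shaft, or tied to Hoxc13, were lower or did not pass. Of 20 listed, 10 were tested, 4 fell in 2KO, none rose and 6 did not pass by edgeR's quasi-likelihood test, where 2.42% of all tested genes fell and 6.61% rose. On the higher side 1 had an unadjusted p under 0.05, the hair keratin gene Krt85, at 0.0710, 1.45 and 1.34 CPM in control and 3.18, 6.61 and 3.41 CPM in 2KO, without overlap (log2 fold change 2.2, edgeR adjusted p = 0.175). For the higher side, DESeq2 and limma-voom called 0. On the lower side 6 had an unadjusted edgeR p under 0.05, with Padi3 and Lef1 besides the 4 that fell, and DESeq2 and limma-voom called 4 each. The list had a median log2 fold change of -1.18 against -0.02 over all tested genes. The 4 that fell by edgeR's test were the hair keratin gene Krt35, the hair desmosome gene Dsg4, and Dlx3 and Msx2, which encode transcription factors of hair differentiation. Krt35 was at 10.7, 14.9 and 13.6 CPM in control and at 0.745, 0.20 and 1.14 CPM in 2KO (log2 fold change -4.24, SE 0.58, edgeR adjusted p = 0.00251). Dlx3 was at 181, 131 and 181 CPM in control and at 58.3, 106 and 76.5 CPM in 2KO, a log2 fold change of -1.04 like that of Hoxc13. Lef1, a factor of follicle signaling and the most abundant gene of the list, was at 280, 299.5 and 294 CPM in control and at 135, 217 and 257 CPM in 2KO, and did not pass (edgeR adjusted p = 0.218). Foxn1, which encodes a transcription factor of the hair shaft, did not pass either. It was at 27.7, 61.6 and 77.7 CPM in control and at 32.0, 67.9 and 45.6 CPM in 2KO, overlapping ranges (log2 fold change -0.20, SE 0.38, edgeR adjusted p = 0.832). The log2 ratio of Hoxc13 to Foxn1 counts within a library was 0.90, -0.74 and -1.16 in control and -0.83, -2.07 and -0.93 in 2KO. Its mean differed by -0.94, which was not larger than the spread (two-sided exact permutation test, n = 3 each, p = 0.4, adjusted p = 0.4 over 4 ratios; 3 against 3 cannot go below 0.1). Of 13 hair follicle markers, 5 fell (Shh, Krt71, Krt25, Krt27 and Krt35) and none rose by the same edgeR test. On the lower side 8 had an unadjusted edgeR p under 0.05, with Lhx2 (edgeR adjusted p = 0.0558), Cux1 and Lef1 besides the 5. DESeq2 called 6 lower and limma-voom 5. On the higher side DESeq2 called 2, limma-voom called 1, and 3 had an unadjusted edgeR p under 0.05. These 3 were Krt85, Krt17, a follicle keratin gene with means of 428 CPM in control and 790 in 2KO (edgeR adjusted p = 0.0514), and Krt79, a keratin gene of the follicle opening with means of 248 and 521 CPM (0.157). The list shares Krt35, Krt85 and Lef1 with the hair genes. The summed level of the 13 follicle markers overlapped between the groups (2460 to 3190 CPM in control, 2500 to 2957 in 2KO). That sum includes Krt17 and Krt79, with higher means in 2KO, so it says little of the other markers. Of the 13, 10 had a log2 fold change below 0 and 3 above 0. In bulk samples fewer cells of a type and less RNA per cell cannot be told apart, and the part of the loss of follicle markers in the lower Hoxc13 was not tested.

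The 4 genes beside Hoxc13 had higher values in every 2KO library. The gap between the end of Hoxc13 and the start of Hoxc12 is 7.94 kb. Hoxc12 (102936757 to 102938609), a posterior Hox gene, was at 0.177, 2.26 and 0.0654 CPM in the control libraries, from 5, 70 and 2 counts. In the 2KO libraries it was at 6.12, 15.5 and 7.96 CPM. All 2KO libraries were above all control libraries, and control replicate 2 was the highest of its group. The mean was 0.834 ± 1.24 CPM in control and 9.87 ± 4.98 in 2KO, 11.8-fold apart, and did not pass the test (log2 fold change 3.55, SE 1.03, edgeR adjusted p = 0.0652). It passed with no low-count filter (edgeR adjusted p = 0.0168), with DESeq2 (0.000849), with limma-voom (0.0264) and without control replicate 2 (0.00214), where the log2 fold change was 6.31.

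Hoxc11 (102954427 to 102957708), a gene of the hind part of the trunk and of the hindlimb, had 0 counts in all 3 control libraries. It had 14, 24 and 12 counts in the 2KO libraries, or 0.549, 0.801 and 0.471 CPM. Its 50 counts over the 2KO group, scaled by depth, were at least 18.5-fold above a floor of 3 counts over the control group, and the 95% counting interval of the ratio began at 14.5. It passed the test (edgeR adjusted p = 0.0302). Detected in every 2KO library, it was still the least abundant member there. The call was lost whichever library was left out (edgeR adjusted p between 0.0679, with 2KO replicate 1 omitted, and 0.102, with control replicate 3 omitted). It was also lost with Xist as a covariate (0.0891).

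Hoxc10 (102966796 to 102971893), a gene of the lumbar region and the hindlimb, showed the largest gain in CPM of any member. It was at 0.177, 3.71 and 0 CPM in the control libraries, from 5, 115 and 0 counts. In the 2KO libraries it was at 25.4, 48.2 and 41.4 CPM, from 647, 1445 and 1056 counts. The lowest 2KO library thus held more than the highest control library. The means were 1.30 ± 2.09 and 38.3 ± 11.7 CPM (SD, n = 3 each), 29.6-fold apart (log2 fold change 4.87, SE 1.16, edgeR adjusted p = 0.0298). Among libraries with high Xist the values were 0 in control against 25.4 and 48.2 CPM in 2KO, and among those with low Xist 0.177 and 3.71 against 41.4. The log2 fold change stayed above 0 in all 18 alternatives, between 4.23 and 8.73, the latter without control replicate 2. The call was lost without control replicate 1 (edgeR adjusted p = 0.0669) and 2KO replicates 2 (0.077) or 3 (0.0773). It was also lost with DESeq2 (0.0581), with Xist as a covariate (0.0561) and with both replicate-3 (0.118) or both replicate-1 libraries (0.0665) left out.

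Hoxc9 (102977032 to 102985099), expressed from the lower thorax backwards, was already present in control skin at 1.49, 5.33 and 1.41 CPM. In 2KO it was at 6.31, 14.1 and 13.3 CPM. The groups did not overlap, but the gap between control replicate 2 and 2KO replicate 1 was small. The mean was 2.74 ± 2.24 CPM in control and 11.2 ± 4.27 in 2KO, 4.09-fold apart, and did not pass (log2 fold change 2.03, SE 0.59, edgeR adjusted p = 0.0639). It passed with no low-count filter (edgeR adjusted p = 0.0264), with DESeq2 (0.0046), with limma-voom (0.0398) and without control replicate 2 (0.0108).

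**Figure D2:**
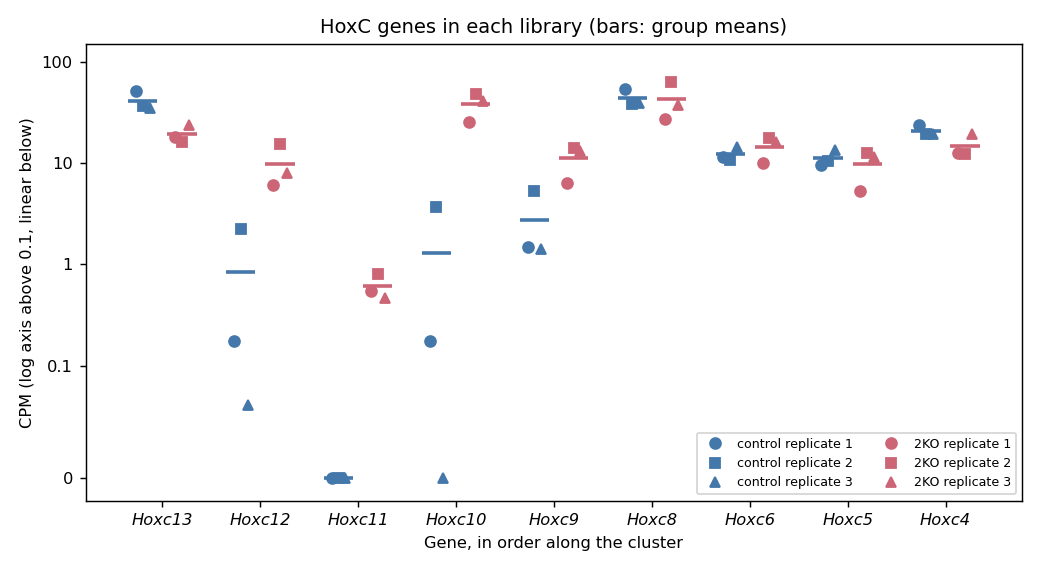
TMM-scaled CPM of each HoxC gene (vertical axis, logarithmic above 0.1 and linear below) in each library, with genes in cluster order (horizontal axis), control in blue and 2KO in red. Symbols mark the replicate numbers and short bars the means of 3 libraries. Control replicate 2 (blue square) stands above the other control libraries for Hoxc12 (2.26 CPM), Hoxc10 (3.71 CPM) and Hoxc9 (5.33 CPM), and is not the highest control library for Hoxc13 or for Hoxc8 to Hoxc4.

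Control replicate 2 carried counts of several posterior Hox genes that the other control libraries lacked, nearly lacked or held at lower levels. The pattern was noticed after the values were seen. Besides Hoxc9, Hoxc10 and Hoxc12, this held for genes of the HoxD cluster. Hoxd9 was at 12.3 CPM there against 0.248 and 0.0654 in control replicates 1 and 3, Hoxd10 at 2.42 against 0.0710 and 0.163, and Hoxd11 at 14.8 against 0 and 0.817. Their 2KO libraries reached 17.9 to 33.3, 4.47 to 24.5 and 18.2 to 38.4 CPM. Hoxb9 (32.9 CPM against 12.7 and 12.5) and Hoxd8 (35.8 against 13.8 and 12.9) were also highest there among the control libraries. So were Hoxb4 (18.6 CPM against 13.98 and 11.8), Hoxb5 (26.3 against 15.1 and 15.96), Hoxb6 and Hoxd4, which are genes of lower number. Hoxa4, Hoxa5, Hoxa6, Hoxb8, Hoxc4, Hoxc5, Hoxc6 and Hoxc8 were not highest there. The pattern was therefore not limited to posterior genes. Not all posterior genes followed this pattern. Hoxc11 and Hoxa11 had 0 counts there, and Hoxa10, at 0.226 CPM, was below control replicate 3. Hoxa9, at 3.94 CPM, was below control replicate 3 as well (6.44 CPM). Hoxa13 (0.258 CPM against 0 and 0) and Hoxd13 (0.161 against 0 and 0.0327) followed it at very low levels, and Hoxb13 with 1 count. The labels give no body level for the skin that was taken.

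Within each library the balance of the cluster was shifted. Ratios of counts between genes of 1 library do not depend on the scaling. The log2 ratio of Hoxc10 to Hoxc13 was -8.05, -3.30 and -11.06 in control and 0.49, 1.58 and 0.80 in 2KO, a mean difference of 8.43. For Hoxc11 the ratio to Hoxc13 went from -11.51, -11.15 and -11.06 to -4.99, -4.31 and -5.61. For Hoxc12 it went from -8.05, -4.01 and -8.74 to -1.55, -0.06 and -1.58. All 3 ratios were higher in every 2KO library than in any control library, and each reached the smallest p that 3 against 3 allows (two-sided exact permutation test, p = 0.1, adjusted p = 0.133 over 4 ratios). This outcome was fixed by the values above, since each of these genes was higher and Hoxc13 lower in 2KO without overlap. The ratios are therefore a description and no further support. For Hoxc11 in all control libraries, and for Hoxc10 in control replicate 3, the values rest on the 0.5 counts added to each count. The difference for Hoxc10 was 6.63 without control replicate 3 and 10.51 without control replicate 2. For Hoxc12 it was 4.97 and 7.33, and for Hoxc11 it was 4.4 with 2 counts added.

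Hoxc9 to Hoxc12, grouped after their values were seen, made up 1.21% (95% exact binomial interval 0.907 to 1.59), 8.90% (8.03 to 9.84) and 1.20% (0.876 to 1.6) of the HoxC counts of the control libraries. In the 2KO libraries the share was 34.3% (32.6 to 36.1), 39.2% (38.0 to 40.5) and 36.7% (35.3 to 38.2). The share of Hoxc13 was 34.0%, 29.0% and 28.4% in control and 16.1%, 8.06% and 13.9% in 2KO. The summed level of all members overlapped between the groups, at 152, 127 and 123 CPM in control and 112, 200.3 and 172 CPM in 2KO. These intervals cover counting error only, since amplified reads without molecular identifiers are not independent molecules.

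**Figure D3:**
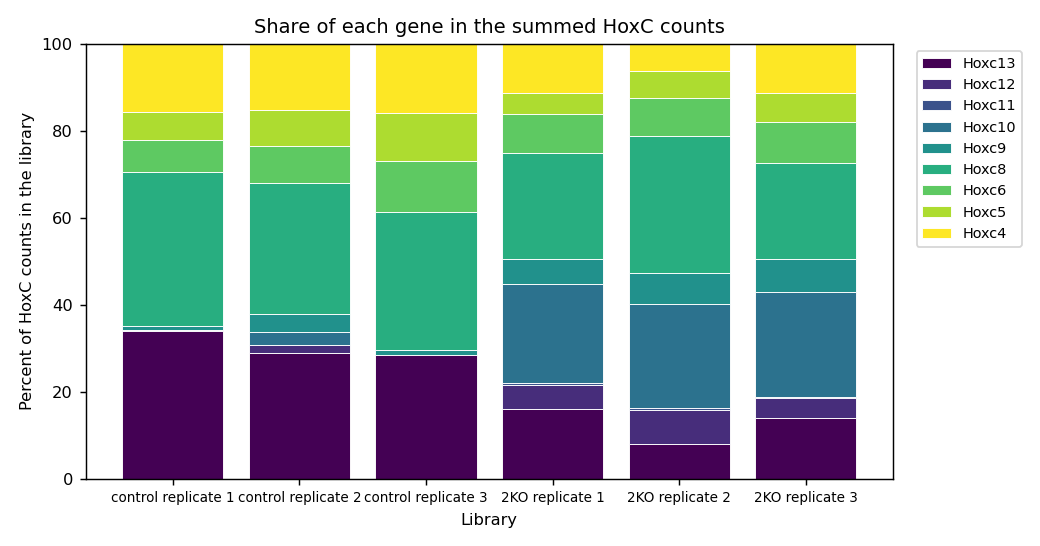
Share of each HoxC gene in the summed HoxC counts of a library (vertical axis, percent) for the 6 libraries (horizontal axis), stacked in cluster order with Hoxc13 at the bottom. Hoxc9 to Hoxc12 take 1.21%, 8.90% and 1.20% in the control libraries and 34.3% to 39.2% in the 2KO libraries.

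The 4 remaining members did not pass the test in either direction. Hoxc8 (102990607 to 102993821), 5.51 kb beyond Hoxc9, was at 53.7, 38.3 and 38.9 CPM in control and at 27.4, 63.0 and 37.9 CPM in 2KO. The 2KO libraries held both the lowest and the highest value (log2 fold change -0.03, SE 0.31, edgeR adjusted p = 0.976). Hoxc6 (103009573 to 103011881) was at 11.5, 10.8 and 14.6 CPM in control and at 10.1, 17.5 and 16.1 in 2KO (log2 fold change 0.25, SE 0.30, adjusted p = 0.721). Hoxc5 (103013815 to 103017429) was at 9.54, 10.5 and 13.4 CPM in control and 5.29, 12.6 and 11.5 in 2KO (log2 fold change -0.18, SE 0.37, edgeR adjusted p = 0.846). For both genes the ranges overlapped. Hoxc4 (103018934 to 103036852) was at 23.9, 19.3 and 19.6 CPM in control and at 12.6, 12.4 and 19.5 CPM in 2KO, where replicate 3 lay within the control range (log2 fold change -0.50, SE 0.27, edgeR adjusted p = 0.337). None of these 4 genes passed under any of 18 alternatives. The lowest adjusted p among them was 0.173, for Hoxc4. The direction of Hoxc5 and Hoxc8 turned when some libraries were left out. Within the 2KO group, replicate 1 had the lowest level of Hoxc8, Hoxc6 and Hoxc5 and also of Hoxc9, Hoxc10 and Hoxc12.

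Levels of different genes can be compared only per length. Per kb of annotated exon, the order in control was Hoxc8 (23.4 ± 4.66 CPM per kb), Hoxc13 (16.7 ± 3.76), Hoxc4 (8.15 ± 1.01), Hoxc6 (7.78 ± 1.25), Hoxc5 (3.81 ± 0.684), Hoxc9 (1.15 ± 0.944), Hoxc12 (0.809 ± 1.20) and Hoxc10 (0.679 ± 1.10), with Hoxc11 at 0 counts. In 2KO the order of these levels was Hoxc8 (22.9 ± 9.80), Hoxc10 (20.1 ± 6.15), Hoxc12 (9.57 ± 4.83), Hoxc6 (9.22 ± 2.50), Hoxc13 (7.86 ± 1.63), Hoxc4 (5.77 ± 1.58), Hoxc9 (4.73 ± 1.80), Hoxc5 (3.36 ± 1.36) and Hoxc11 (0.300 ± 0.0854). Hoxc13 thus went from rank 2 in control to rank 5 in 2KO, while Hoxc10 went from rank 8 to rank 2. Not all neighbours in these orders can be separated. In control, the libraries of Hoxc8 and Hoxc13 overlapped, as did those of Hoxc4 and Hoxc6, of Hoxc9 and Hoxc12, of Hoxc12 and Hoxc10, and of Hoxc10 and Hoxc11. In 2KO, each member overlapped with the next in the order except Hoxc5 with Hoxc11. The lengths are those of GENCODE vM21, while the authors' annotation is a detail not given in the sources used here.

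Noncoding rows of the cluster were few. Hotair (102944062 to 102947730, minus strand), a long noncoding RNA between Hoxc12 and Hoxc11, had 0, 4 and 0 counts in control and 28, 54 and 71 counts in 2KO. Its 2KO levels were 1.10, 1.80 and 2.79 CPM, all above the control libraries, and it rose (log2 fold change 5.30, SE 1.25, edgeR adjusted p = 0.029). All 4 control counts were in replicate 2, the library with counts of Hoxc10 and Hoxc12. Mir615, within the Hoxc5 gene, had 3 counts in control and 4 in 2KO. Mir196a-2 (102973350 to 102973434), between Hoxc10 and Hoxc9, had 0 counts in control and 7, 0 and 2 counts in 2KO. Libraries of this kind do not measure mature miRNAs, and neither row had enough counts to be tested.

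The mature miR-196a of this hairpin is shown because its seed (bases 2 to 8, in capitals) has matches in a member of the same cluster. For the Hoxc8 sites, capitals mark the match ACTACCT.
miR-196a (RefSeq, GRCm38): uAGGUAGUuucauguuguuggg
Hoxc8 site 1 (chr15:102992976-102992997): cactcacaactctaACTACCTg
Hoxc8 site 2 (chr15:102993733-102993754): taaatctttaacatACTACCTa
Both sites lie in the last 966 bases of the Hoxc8 transcript, its 3′ UTR. Searched on the transcript strand alone, the 3′ UTRs of the other 8 members hold no match. Of 10471 genes with a 3′ UTR of at least that length, 3.76% hold at least 1 match in their first 966 bases and 0.143% hold 2. Hoxc8 did not pass the test, as given above, and the level of mature miR-196a was not measured.

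Beside the cluster no gene passed, which for 10 genes is close to the share of all tested genes that passed. Of the 5 nearest protein-coding genes with a row on each side, from Calcoco1 at 199 kb before Hoxc13 to Smug1 at 116 kb after Hoxc4 and beyond, all 10 were tested. By edgeR's quasi-likelihood test, DESeq2 and limma-voom alike, 0 passed in either direction, against 9.02% of all tested genes by edgeR. At an unadjusted p under 0.05, 2 were lower (Cbx5 and Nfe2), and the median log2 fold change was -0.07. The most abundant were Cbx5, encoding a heterochromatin protein, at 543, 443 and 505 CPM in control and 401, 345 and 284 in 2KO, and Atf7, encoding a transcription factor, at 498, 472 and 415 against 445, 374 and 426 CPM. Cbx5 did not overlap between the groups (log2 fold change -0.53, SE 0.18, edgeR adjusted p = 0.107).

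The genes of the same number in the HoxA, HoxB and HoxD clusters showed a like order by number, with Hoxc13 apart. Of 20 such paralogs 19 were tested, with Hoxd12 at 0 counts in every library. By edgeR's test 6 rose (Hoxa9, Hoxa10, Hoxa11, Hoxa13, Hoxb13 and Hoxd13), 0 fell and 13 did not pass, against 6.61% risen among all tested genes. At an unadjusted p under 0.05, 2 were lower, and DESeq2 and limma-voom called 0 lower. All 10 tested paralogs of number 9 and above were higher in every 2KO library than in any control library, against 15.2% of all tested genes. Of the 9 of numbers 4 to 8, none was higher without overlap and 3 were lower without overlap (Hoxb4, Hoxb5 and Hoxb8), against 13.1%. Genes silent in control, as some of number 10 and above nearly were, could be tested only where they were high in 2KO. Hoxd13 was at 37.5, 23.7 and 29.3 CPM in 2KO, and at 0, 0.161 and 0.0327 CPM in control. Hoxa13 was at 7.06, 9.65 and 13.3 CPM in 2KO and at 0, 0.258 and 0 in control. Among the genes of number 13, Hoxc13 was the member with high levels in all control libraries and the one that fell. By mean CPM over all 6 libraries, not per length, the paralogs with the most reads were Hoxb9, at 12.7, 32.9 and 12.5 CPM in control and 47.9, 48.5 and 38.4 in 2KO, and Hoxd8, whose groups overlapped, and neither passed. The difference between Hoxc13 and the other genes of its number was not tested. All these genes share the same libraries, so they are not independent of one another.

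**Figure D4:**
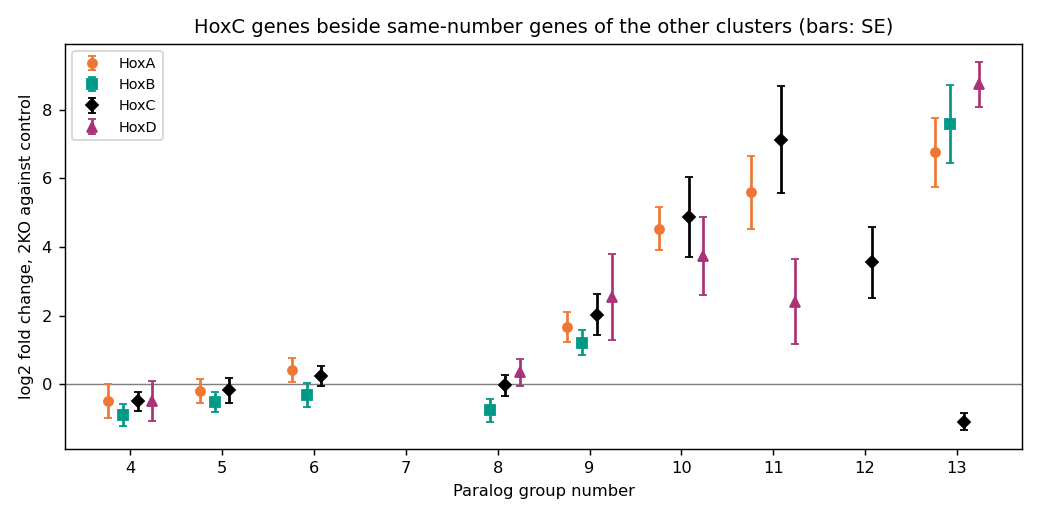
Log2 fold change of 2KO against control (vertical axis, edgeR, error bars SE) for the HoxC genes and the tested genes of the same number in HoxA, HoxB and HoxD (horizontal axis, paralog group number). Genes of numbers 4 to 8 lie between -0.89 and 0.42, and those of number 9 and above between 1.21 and 8.73, except Hoxc13 at -1.09. Values for genes with 0 control counts depend on the prior count.

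Among the Hox cofactors, homeodomain proteins that bind DNA together with Hox proteins, 8 of 9 were tested, 3 rose, 0 fell and 5 did not pass by edgeR's test, where 6.61% of all tested genes rose and 2.42% fell. At an unadjusted p under 0.05, 1 was lower, and DESeq2 and limma-voom called 0 lower and 4 higher. Meis2 went from 23.7, 43.5 and 36.5 CPM in control to 132, 133 and 148 CPM in 2KO, without overlap (log2 fold change 1.99, SE 0.24, edgeR adjusted p = 0.00147). Meis1 went from 15.7, 25.4 and 11.4 to 51.5, 41.0 and 39.5 CPM, and Pknox2 from 1.49, 1.26 and 1.50 to 8.24, 6.48 and 6.40 CPM.

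The genes whose pattern over the 6 libraries was most like that of Hoxc13, among 9139 tested genes with a mean of at least 10 CPM, were Casz1, Jade1, Tmem106c, Ank and Trp63, with Pearson correlations of log2(CPM + 1) between 0.993 and 0.998. For Hoxc10 they were Pam, Dpysl5, Spock2, Adgrg2 and Adarb1, with correlations between 0.995 and 0.999. With 6 libraries in 2 groups, a high correlation mostly restates the difference between groups, and it is given as a description. Casz1, which encodes a zinc finger factor, went from a mean of 467 CPM in control to 239 in 2KO (log2 fold change -0.97, SE 0.19, edgeR adjusted p = 0.0129). Trp63, the p63 gene of stratified epithelium, went from 1798 to 1256 CPM and did not pass (log2 fold change -0.52, SE 0.16, adjusted p = 0.0872).

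Fibroblasts of back skin also express Hox genes, so their markers are given beside the members. Of 12 fibroblast and papilla markers 10 were tested by edgeR's test, where 6.61% of all tested genes rose and 2.42% fell. Among the 10, 1 rose (Pdgfra, from 0.710, 1.26 and 0.719 to 7.06, 7.31 and 16.2 CPM) and 0 fell. At an unadjusted p under 0.05, 0 were lower, and DESeq2 and limma-voom called 0 lower and 2 and 1 higher. None of the 12 was at 0 counts in all libraries. Their summed level overlapped, between 635 and 1389 CPM in control and between 803 and 1308 in 2KO. That sum was mostly Dcn (272 to 527 CPM over all libraries) and Vcan (184 to 639 CPM), so it says little of the other markers. Crabp1, like Pdgfra, was higher in 2KO without overlap (means of 0.436 and 3.54 CPM, edgeR adjusted p = 0.158). Corin and Twist2, too low to be tested, were lower in 2KO without overlap. In control replicate 2, with counts of Hoxc10 and Hoxc12, the summed level was the lowest of the control libraries, while Pdgfra, Sox2, Crabp1 and Corin of this list were highest there among them, each at 1.36 CPM or less. The part of other cells in the levels of the HoxC genes was not tested.

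**Figure D5:**
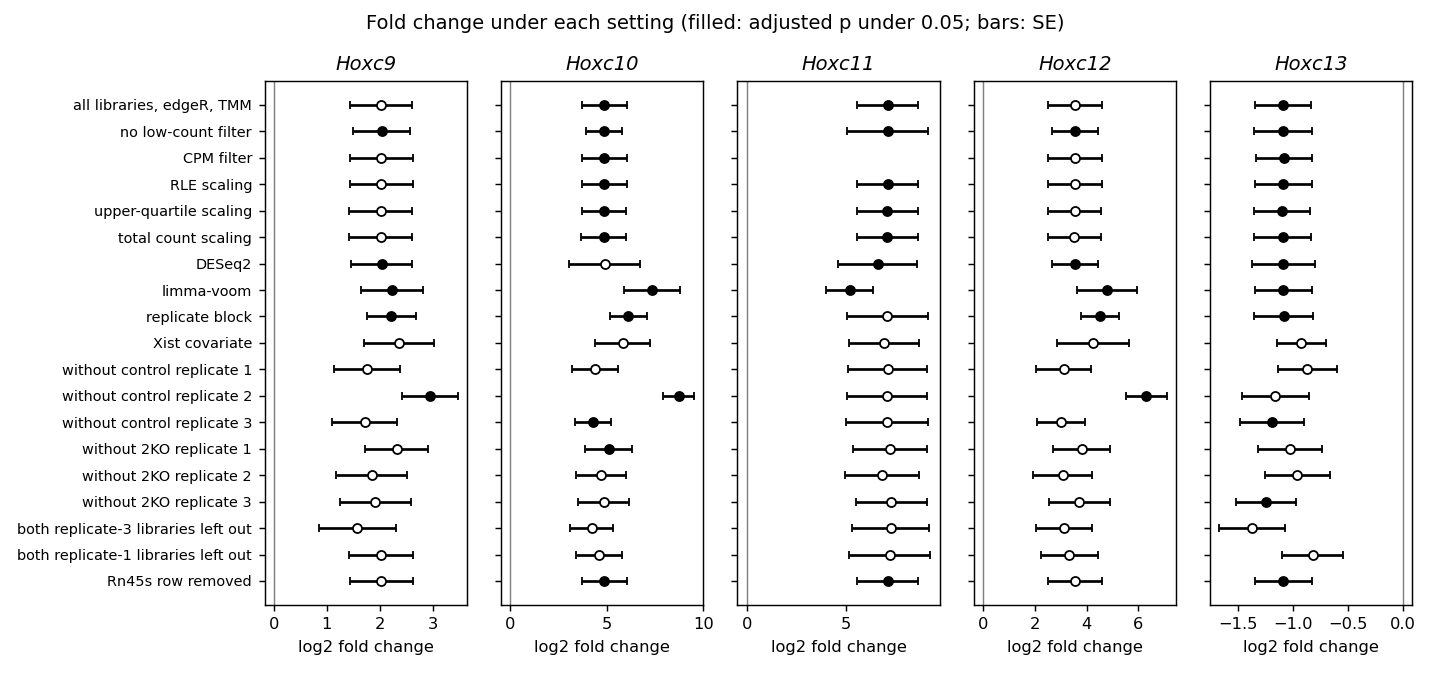
Log2 fold change of 2KO against control with its SE (horizontal axis) for Hoxc9 to Hoxc13 under the 18 alternatives and the fit of all libraries (vertical axis). Filled points have an adjusted p under 0.05. Every point of Hoxc9 to Hoxc12 lies above 0 and every point of Hoxc13 below 0, while the side of the threshold changes. Hoxc11 has no point under the CPM filter, which removes it.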

How the data were processed

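The deposited values are raw counts, not normalized by the authors, with 1 file of gene symbols per library. Per the submitters' processing notes, the tools were DESeq2 1.6.3, HTSeq 0.6.1, TopHat2 2.0.13 and Cufflinks 2.2.1, on mm10. Annotation, strand setting and filters: not given in the sources used here. By the labels' protocols, cDNA was amplified from 10 ng of total RNA and sequenced as single reads of 100 nt. Low-input amplification adds spread between libraries. From the counts, genes were kept by filterByExpr (edgeR 4.0.16, R 4.3.3, minimum count 10), scaled by TMM and compared by the quasi-likelihood test with no covariate and Benjamini-Hochberg adjustment. An SE equals the size of the log2 fold change over the root of its F value. The procedure was tested on simulated data. Alternatives covered filters, scaling, DESeq2 1.42.0, limma-voom (limma 3.58.1), a replicate block, an Xist covariate and libraries left out. Coordinates are from GENCODE vM21 (GRCm38). All 9 members were named, other lists by members past the threshold and the most abundant. Members, lists and alternatives were chosen with earlier results of these data known. Likeness was ranked by the correlation of log2(CPM + 1). Some sequences and 1 gene's values are not reported here.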

Additional observations from a re-analysis of the deposited data

How the results depend on the processing

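The direction of Hoxc4, Hoxc6, Hoxc9, Hoxc10, Hoxc11, Hoxc12 and Hoxc13 was the same in every alternative run. With 1 library left out, the log2 fold change of Hoxc5 ranged from -0.39 to 0.13 (above 0 without 2KO replicate 1), and that of Hoxc8 from -0.41 to 0.22 (0.17 without control replicate 1, and 0.22 and 0.08 without 2KO replicates 1 and 3). They were 0.041 and 0.41 when both replicate-1 libraries were omitted. The number of members that rose was 2 in the fit of all libraries, 4 with no low-count filter, 4 with limma-voom, 1 with the CPM filter (at least 1 CPM in 3 libraries), and 0 with Xist as a covariate or with both replicate-3 or both replicate-1 libraries left out. In these 3 edgeR fits 4, 3 and 4 members had an unadjusted p under 0.05 on the higher side, and DESeq2 called 3. Leaving out 1 library gave 0 to 3 risen members (3 without control replicate 2, namely Hoxc9, Hoxc10 and Hoxc12). The number that fell was 1, and 0 with the Xist covariate and with both replicate-3 or both replicate-1 libraries left out, where edgeR gave 1, 2 and 1 at an unadjusted p under 0.05. It was 0 to 1 with 1 library left out. Over all tested genes, 989 rose and 362 fell. With both replicate-3 libraries left out these were 309 and 72, with DESeq2 733 fell, and with the Xist covariate 237 fell. Leaving out 1 library gave 615 to 854 risen and 184 to 347 fallen genes. The smaller fits hold fewer samples. Otherwise the cause was not tested. All 4 ratios within a library kept their direction in every alternative.

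The labels do not say whether the replicate numbers pair the samples, and 3 libraries per group are too few to decide it. Same-numbered libraries had correlations of their deviations from the group means of 0.33, 0.10 and -0.16, and not every library correlated best with its own number. With a replicate block 3 members rose (Hoxc9, Hoxc10 and Hoxc12) and 1 fell, against 1142 and 540 genes over the whole table. Hoxc9 (edgeR adjusted p = 0.0126) and Hoxc12 (0.00348) passed under the block, and Hoxc11 did not (0.0658).

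Depth limits Hoxc11 and Mir196a-2, where a control group at 0 counts allows up to 0.0334 CPM, and Hotair and Mir615, with 4 and 3 control counts.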
